A study of Mus musculus with 12 samples.

Results

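The genes described here are 34 mouse genes of cholesterol and fatty acid synthesis, chosen by name. They are the enzymes of the mevalonate, squalene and sterol steps, the regulators that sense sterols, 1 sterol carrier, and the enzymes that make, elongate and desaturate fatty acids. Of the 34 genes, 33 had a probe set that the platform annotation assigned to 1 gene symbol, among 18193 genes with such a probe set. All 33 lay above the filter on dim probe sets, and they were tested among 14990 genes in all. The remaining gene, Acat2, was not analysed here.

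Gene expression was measured on Affymetrix arrays in 3 groups of 4 samples from mouse pancreas, with arrays lettered A to D. yDucts were ductal organoids that arose from acini of adult R26-rtTA; tetO-YAP S127A mice after doxycycline had switched on YAP, the effector of the Hippo pathway, and they were later passaged without doxycycline. R26-rtTA places the doxycycline-dependent activator at a ubiquitous locus, so the transgene was not limited to acinar cells by its promoter. Ducts were organoids grown from native pancreatic duct fragments, and Acini were freshly isolated exocrine acini that had not been cultured. Both kinds of organoid were kept in Matrigel under a medium with B27, N-acetylcysteine, gastrin, EGF, Noggin, FGF10, nicotinamide and R-spondin1. Fresh tissue and organoid culture therefore cannot be told apart from acinar and ductal identity in any comparison with Acini. The genotype and strain of the Ducts and Acini animals, and the animals or cultures behind each letter, were left unstated by the labels and the study's methods, so p-values measure the spread between arrays, which may be partly technical.

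Cholesterol is built from acetyl-CoA by way of mevalonate, isoprenoids, squalene and lanosterol. Fatty acids are built from the same acetyl-CoA by carboxylation to malonyl-CoA and repeated extension on fatty acid synthase. In both pathways transcription is driven by the SREBP factors, which SCAP escorts from the endoplasmic reticulum to the Golgi for cleavage when sterols are low, while the INSIG proteins hold SCAP back when sterols are plentiful. In the pancreas, acinar cells use much of their lipid for the membranes of the secretory pathway, and ductal cells line the tubes that carry the secreted enzymes.

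SREBP factors bind promoters at sterol regulatory elements, usually beside sites for the cofactors NF-Y and SP1. The promoters of 6 members are shown because these genes led the comparisons, were regulators, or held the element searched. They are the 250 bases before the start site given by RefSeq (assembly GRCm38.p6), 5′ to 3′ on the strand of the gene, with matches to TCACNCCAC (a sterol regulatory element) and CCAAT (the NF-Y site) on either strand in capitals.
Hmgcs1 (chr13:119690101-119690350, plus strand): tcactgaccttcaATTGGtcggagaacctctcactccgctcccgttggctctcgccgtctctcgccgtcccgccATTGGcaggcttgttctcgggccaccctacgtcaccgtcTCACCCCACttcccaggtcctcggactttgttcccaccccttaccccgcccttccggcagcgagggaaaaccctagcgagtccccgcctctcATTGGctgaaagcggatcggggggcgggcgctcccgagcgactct
Idi1 (chr13:8885356-8885605, plus strand): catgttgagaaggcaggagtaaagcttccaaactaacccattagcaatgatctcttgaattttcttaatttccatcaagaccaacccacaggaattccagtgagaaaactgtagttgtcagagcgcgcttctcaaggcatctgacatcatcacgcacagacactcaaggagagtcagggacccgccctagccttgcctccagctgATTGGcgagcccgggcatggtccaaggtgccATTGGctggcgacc
Cyp51 (chr5:4104698-4104947, minus strand): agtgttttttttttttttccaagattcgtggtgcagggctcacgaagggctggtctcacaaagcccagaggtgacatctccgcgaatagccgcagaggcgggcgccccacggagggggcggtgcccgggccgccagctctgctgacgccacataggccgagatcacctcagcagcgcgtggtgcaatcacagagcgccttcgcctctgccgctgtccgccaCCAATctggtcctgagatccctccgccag
Msmo1 (chr8:64733579-64733828, minus strand): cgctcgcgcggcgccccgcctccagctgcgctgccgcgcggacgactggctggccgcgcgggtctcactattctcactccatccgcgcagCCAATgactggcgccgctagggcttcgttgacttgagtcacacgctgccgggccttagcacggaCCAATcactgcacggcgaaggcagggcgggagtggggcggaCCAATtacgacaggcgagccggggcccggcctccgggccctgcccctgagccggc
Nsdhl (chrX:72918271-72918520, plus strand): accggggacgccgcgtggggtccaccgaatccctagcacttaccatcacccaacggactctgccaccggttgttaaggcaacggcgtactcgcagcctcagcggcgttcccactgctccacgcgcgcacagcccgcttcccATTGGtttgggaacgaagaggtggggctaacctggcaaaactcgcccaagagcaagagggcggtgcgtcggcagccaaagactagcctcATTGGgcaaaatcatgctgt
Insig1 (chr5:28071162-28071411, plus strand): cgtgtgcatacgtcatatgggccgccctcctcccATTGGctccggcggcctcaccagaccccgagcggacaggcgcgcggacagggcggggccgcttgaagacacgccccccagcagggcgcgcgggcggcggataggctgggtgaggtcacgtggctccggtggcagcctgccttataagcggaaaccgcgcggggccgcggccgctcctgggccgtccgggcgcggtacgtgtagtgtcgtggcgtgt

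The RefSeq promoter table held 27 of the 34 genes, and Scd1, Scd2, Fads1, Fdft1, Fdps, Sqle and Stard4 had no entry in it. The strict element TCACNCCAC was found upstream of Hmgcs1 alone among the 27, starting 137 bases before its start site, and in 1.22% of the 27025 genes in the table. CCAAT was found for 21 of the 27 genes, against 37.5% of all genes. GGGCGG, the SP1 site, was found for 22 of the 27 against 35.4% of all genes, and CACGTG, the E-box, for 6 of the 27 against 6.86%. These are matches of letters on both strands of a 250-base window, counted at any start site of a gene, and CCAAT copies may overlap. In the windows printed, Hmgcs1 held 3 CCAAT matches, Msmo1 3, Idi1 and Nsdhl 2 each, and Cyp51 and Insig1 1 each.

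The arrays themselves differed between tissue and culture. Median log2 values were 4.36 to 4.39 in yDucts, 4.36 to 4.4 in Ducts and 4.54 to 4.62 in Acini, and the 30th percentile was 3.18 to 3.21 in yDucts, 3.19 to 3.23 in Ducts and 3.64 to 3.79 in Acini. The 3′ minus 5′ signal of the Gapdh control probe sets, which grows as RNA is degraded, was -0.17 to -0.12 in yDucts, -0.07 to 0.02 in Ducts and 1.29 to 1.91 in Acini. Of the 13 acinar marker genes measured, 13 were called lower in each organoid group, and of 10 ductal markers 7 were called higher in each, among them Krt7 and Krt19. The 3 not called were Krt8, Cftr and Sox9, and Sox9 averaged 6.855 in yDucts, 7.24 in Ducts and 6.68 in Acini. In bulk samples such as these, fewer cells of a type and less RNA per cell cannot be told apart. When the values were quantile normalized again, the split of all genes between calls higher and lower against Acini changed to 4377 and 5376 for yDucts and to 4263 and 5416 for Ducts. In the deposited values it was 6533 and 4890 for yDucts and 6395 and 4960 for Ducts.

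**Figure D1:**
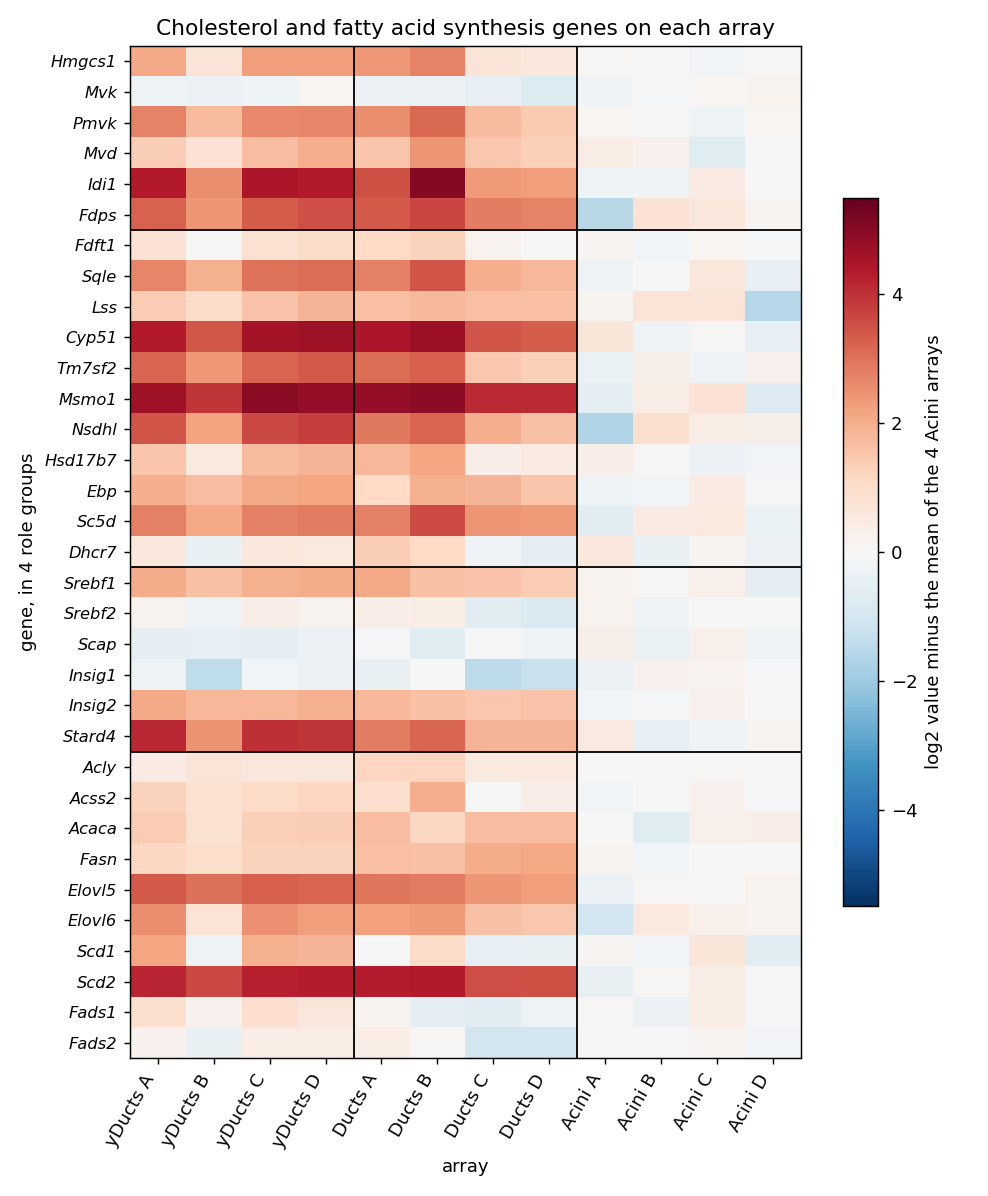
Heat map of the 33 members (rows, in 4 role groups divided by lines) on the 12 arrays (columns, yDucts, Ducts, Acini). Colour is the log2 value minus the mean of the 4 Acini arrays, and Msmo1, Cyp51, Scd2 and Idi1 were the reddest rows on the 8 organoid arrays.

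Both organoid groups carried more transcript of most members than Acini did. In yDucts 27 of 33 members were called higher than in Acini and 1 lower, where 43.6% of all genes tested were called higher and 32.6% lower. In Ducts 24 members were called higher than in Acini and 2 lower, where 42.7% of all genes were called higher and 33.1% lower. For 24 members every yDucts array lay above every Acini array, against 42% of all genes, and for 22 members every Ducts array did, against 37.2% of all genes. The median difference of the members was 1.84 on the log2 scale in yDucts and 1.66 in Ducts, beside 0.24 in yDucts and 0.20 in Ducts over all genes. The 2 comparisons share the Acini arrays and are not independent of each other.

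The size of these counts depended on how the arrays were scaled against each other. With quantile normalization 17 members were higher and 5 lower in yDucts, and 19 higher and 6 lower in Ducts. With cyclic loess the counts were 16 and 6 in yDucts and 17 and 6 in Ducts. The difference between the median of the members and that of all genes was 1.60 in yDucts as deposited, 1.14 after quantile normalization and 0.88 after cyclic loess. In Ducts it was 1.46, 0.92 and 0.76. Under the deposited scaling and 3 others, 16 members were called higher in yDucts each time, against 24.6% of all genes, and 17 in Ducts, against 23.8%.

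**Figure D2:**
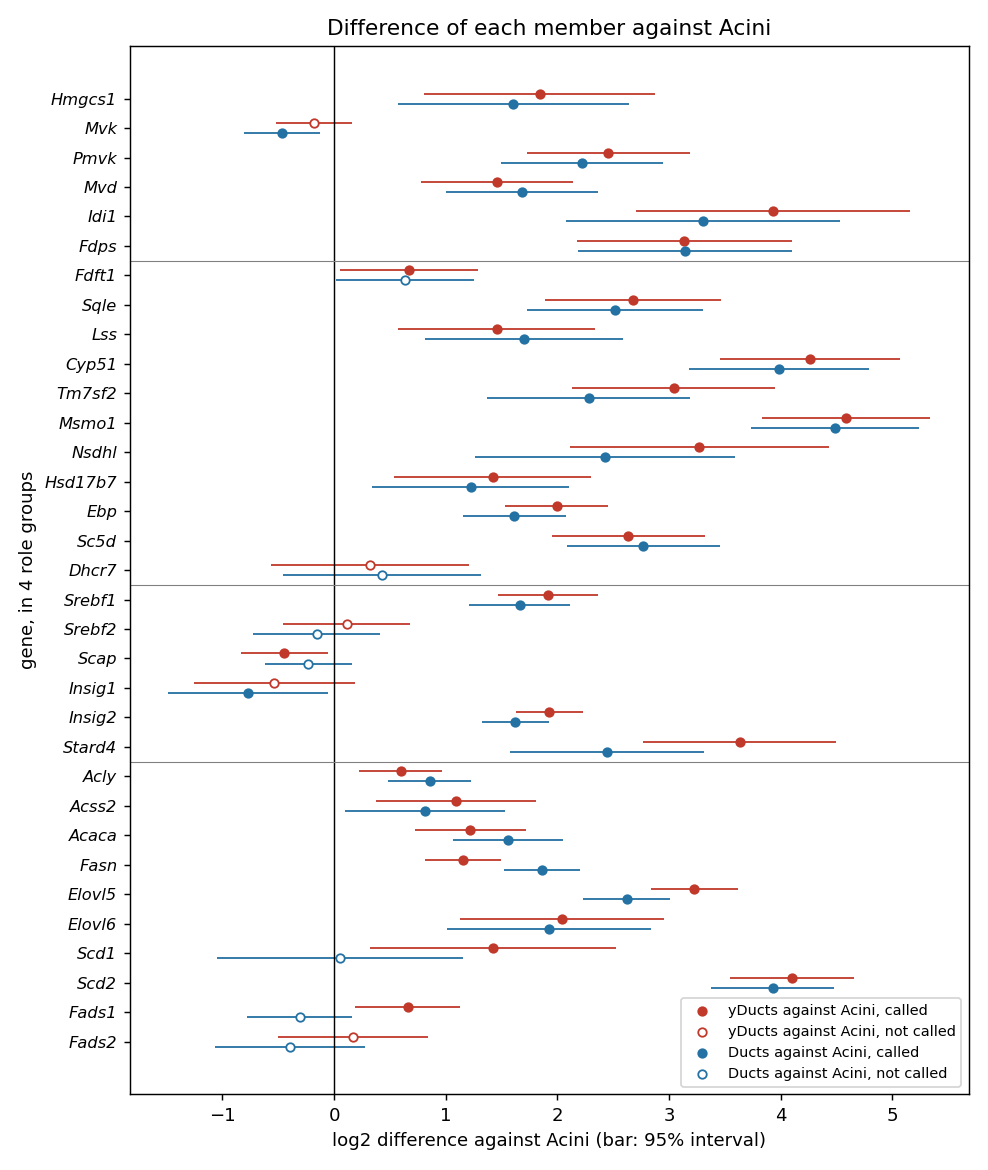
Log2 difference of each of the 33 members against Acini, for yDucts (red) and Ducts (blue), with 95% intervals; filled points were called at an adjusted p under 0.05. Differences reached 4.59 in yDucts and 4.49 in Ducts, both for Msmo1.

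The first steps of the pathway make isoprenoids from acetyl-CoA. Of the 6 genes of this group 5 were called higher in yDucts and 5 in Ducts, with a median log2 difference of 2.15 in yDucts and 1.95 in Ducts. Idi1, the isomerase that turns isopentenyl diphosphate into its allylic isomer, had log2 values of 9.35, 7.53, 9.43 and 9.32 on the 4 yDucts arrays, 8.48, 10.03, 7.32 and 7.28 on the Ducts arrays, and 4.75, 4.74, 5.43 and 4.98 on the Acini arrays. No organoid array overlapped an Acini array, and yDucts B, Ducts C and Ducts D were the lowest organoid arrays. Idi1 was 15.3-fold higher in yDucts (log2 difference 3.93, SE 0.57, adjusted p = 3.79e-05 by limma) and 9.87-fold higher in Ducts (3.30, SE 0.57, adjusted p = 0.000168).

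Fdps, which makes farnesyl diphosphate, had values of 10.32, 9.49, 10.41 and 10.62 in yDucts, 10.43, 10.76, 9.88 and 9.8 in Ducts, and 5.54, 7.87, 7.65 and 7.23 in Acini. The organoid arrays lay close together while Acini A stood well below the other Acini arrays. The difference was 3.14 in yDucts and 3.15 in Ducts (SE 0.44 each, adjusted p = 3.21e-05 in both by limma).

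Hmgcs1, the synthase that forms HMG-CoA and the member whose promoter held the strict sterol element, had values of 10.26, 8.89, 10.45 and 10.45 in yDucts, 10.57, 10.91, 8.89 and 8.73 in Ducts, and 8.23, 8.19, 8.03 and 8.23 in Acini. Again yDucts B, Ducts C and Ducts D were lowest among the organoids, and all 8 lay above Acini. Hmgcs1 was 3.59-fold higher in yDucts (adjusted p = 0.00355 by limma) and 3.04-fold higher in Ducts (adjusted p = 0.00831). Neither call was kept with quantile normalization or cyclic loess, although the sign was. In the deposited values, dimmer Hmgcs1 probe sets above the 30th percentile on all 12 arrays gave larger log2 differences. These were 2.935, 3.315 and 3.4 in yDucts and 2.745, 3.1 and 3.18 in Ducts. Another, above that percentile on only 5 arrays, gave 0.9975 in yDucts and 0.9275 in Ducts. Pmvk, the phosphomevalonate kinase, was 5.49-fold higher in yDucts and 4.66-fold higher in Ducts. Mvd, the decarboxylase of the next step, was 2.75-fold higher in yDucts and 3.22-fold higher in Ducts. The Mvd call was lost in yDucts with quantile normalization (log2 difference 0.76) and cyclic loess (0.57), and in Ducts with cyclic loess (0.79).

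Mvk, mevalonate kinase, went against its group. Its values were 6.31, 6.27, 6.37 and 6.68 in yDucts, 6.25, 6.27, 6.13 and 5.82 in Ducts, and 6.38, 6.5, 6.69 and 6.78 in Acini. Every Ducts array lay below every Acini array, whereas yDucts and Acini overlapped. Mvk was lower in Ducts by 0.47 on the log2 scale (SE 0.16, adjusted p = 0.0155 by limma), and in yDucts the difference was -0.18, with a 95% interval of -0.52 to 0.16. After median centring of the arrays, the difference in Ducts was -0.26 and was not called, and in yDucts it turned to 0.04. With quantile normalization and with cyclic loess, Mvk was called lower in both groups. Over all alternatives its difference reached -0.98 in yDucts and -1.22 in Ducts.

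The squalene and sterol enzymes held the largest differences. Of the 11 genes, 10 were called higher in yDucts and 9 in Ducts, and 0 lower, with a median log2 difference of 2.63 in yDucts and 2.28 in Ducts. Msmo1, the methyl oxidase that starts removal of the C4 methyl groups of lanosterol products, had values of 10.18, 9.42, 10.45 and 10.32 in yDucts, 10.33, 10.44, 9.59 and 9.61 in Ducts, and 5.01, 5.93, 6.29 and 4.8 in Acini. The nearest organoid and Acini arrays were yDucts B and Acini C, and the groups did not overlap. Msmo1 was 24-fold higher in yDucts (adjusted p = 1.49e-07 by limma) and 22.4-fold higher in Ducts (adjusted p = 1.78e-07).

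Cyp51, the lanosterol demethylase, had values of 9.27, 8.32, 9.48 and 9.57 in yDucts, 9.35, 9.61, 8.35 and 8.22 in Ducts, and 5.56, 4.61, 4.98 and 4.44 in Acini. The organoid arrays formed a high set of 5 and a lower set of yDucts B, Ducts C and Ducts D, all far above Acini. It was 19.2-fold higher in yDucts (log2 difference 4.26, SE 0.37) and 15.8-fold higher in Ducts (3.98, SE 0.37).

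Nsdhl, the C4 decarboxylase that follows Msmo1, had values of 9.3, 8.04, 9.44 and 9.61 in yDucts, 8.72, 9.04, 7.82 and 7.44 in Ducts, and 4.17, 6.72, 6.25 and 6.16 in Acini. Acini A was again the lowest array, and the groups did not overlap. The difference was 3.27 in yDucts (SE 0.54, adjusted p = 0.000116 by limma) and 2.43 in Ducts (SE 0.54, adjusted p = 0.0012).

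Sqle, squalene epoxidase, an early oxygen-dependent step, had values of 9.23, 8.49, 9.54 and 9.59 in yDucts, 9.33, 9.98, 8.54 and 8.36 in Ducts, and 6.36, 6.55, 7.15 and 6.09 in Acini. Sc5d, the desaturase that acts on lathosterol, had values of 9.45, 8.8, 9.45 and 9.53 in yDucts, 9.43, 10.24, 9.08 and 9.02 in Ducts, and 6.06, 7.11, 7.2 and 6.32 in Acini. For both genes no organoid array reached down to an Acini array. Sqle was 6.39-fold higher in yDucts and 5.72-fold higher in Ducts, and Sc5d was 6.21-fold higher in yDucts and 6.82-fold higher in Ducts.

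Among the other sterol enzymes, Tm7sf2, a sterol C14-reductase, was 8.22-fold higher in yDucts and 4.87-fold higher in Ducts. Ebp, the sterol isomerase, was 3.98-fold higher in yDucts and 3.06-fold higher in Ducts, and both genes kept their calls under all 4 scalings. Lss, lanosterol synthase, was called higher in both (differences 1.46 in yDucts and 1.7 in Ducts), as was Hsd17b7, a C3-ketoreductase (1.42 in yDucts and 1.23 in Ducts). Neither Lss nor Hsd17b7 was called with quantile normalization or cyclic loess. In the deposited values, dimmer Lss probe sets gave 3.285 and 0.12 in yDucts and 3.40 and 0.325 in Ducts. Dimmer Hsd17b7 probe sets above the 30th percentile on all 12 arrays gave 0.44 and 0.80 in yDucts and 0.34 and 0.655 in Ducts.

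The sterol enzymes Fdft1 and Dhcr7 stood apart from this rise. Fdft1, squalene synthase, had values of 9.96, 9.22, 9.99 and 10.16 in yDucts, 10.24, 10.43, 9.36 and 9.17 in Ducts, and 9.33, 9.01, 9.26 and 9.06 in Acini. The groups overlapped: Acini A and C lay inside the range of the organoid values, and Acini B and D below it. Its difference was 0.67 in yDucts (SE 0.29, adjusted p = 0.0479 by limma), and it turned to -0.17 with quantile normalization and -0.44 with cyclic loess. In Ducts it was 0.64 and was not called (adjusted p = 0.0582), and turned to -0.20 with quantile normalization and -0.48 with cyclic loess. In 6 of 25 alternatives it was called higher in Ducts, among them the centred arrays, with 0.85. The probe sets of Fdft1 differed in direction: a second one gave 1.28 in yDucts and 1.19 in Ducts, and the dimmer ones gave -1.35 and -1.27 in yDucts and -1.16 and -1.23 in Ducts.

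Dhcr7, the reductase that produces cholesterol from its 7-dehydro precursor, had values of 7.14, 6.15, 7.13 and 7.08 in yDucts, 7.92, 7.64, 6.36 and 6.01 in Ducts, and 7.13, 6.15, 6.71 and 6.22 in Acini. All groups overlapped. The difference from Acini was 0.32 in yDucts (95% interval -0.56 to 1.21) and 0.43 in Ducts (95% interval -0.46 to 1.32), so an increase of more than 2-fold lay inside both intervals.

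Of the 5 regulators and the sterol carrier, 3 were called higher and 1 lower in each organoid group. The share called higher, 50%, was near that of all genes, 43.6% in yDucts and 42.7% in Ducts. With quantile normalization 3 were higher and 3 lower in each group. Of all 14989 genes then tested, 4377 were higher and 5376 lower in yDucts, and 4263 and 5416 in Ducts. Insig2, an INSIG retention protein, had values of 8.57, 8.29, 8.3 and 8.43 in yDucts, 8.28, 8.1, 7.96 and 8.03 in Ducts, and 6.31, 6.37, 6.69 and 6.51 in Acini. The 3 groups were tight and the organoids lay far above Acini. Insig2 was 3.80-fold higher in yDucts (adjusted p = 9.05e-08 by limma) and 3.08-fold higher in Ducts (adjusted p = 4.00e-07).

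Insig1, the other INSIG protein and itself a classic SREBP target, had values of 8.59, 7.48, 8.71 and 8.55 in yDucts, 8.47, 8.83, 7.44 and 7.65 in Ducts, and 8.55, 9.1, 9.07 and 8.75 in Acini. The other 5 organoid arrays lay close to the Acini range while yDucts B, Ducts C and Ducts D lay more than 1 log2 unit below most Acini arrays. Insig1 was lower in Ducts by 0.77 (SE 0.33, adjusted p = 0.0495 by limma), a call lost in 13 of 25 alternatives, among them the fits without Ducts C and D and with a replicate block. In yDucts the difference was -0.53 (95% interval -1.25 to 0.18). The sign held under all 4 scalings, and with quantile normalization and cyclic loess Insig1 was called lower in both groups. Over all alternatives its difference reached -1.64 in yDucts and -1.88 in Ducts.

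Srebf1, which encodes the SREBP-1 factors most tied to fatty acid synthesis, had values of 9.69, 9.28, 9.62 and 9.69 in yDucts, 9.73, 9.26, 9.21 and 9.06 in Ducts, and 7.86, 7.7, 7.95 and 7.1 in Acini. All 8 organoid arrays lay above Acini, by 1.92 in yDucts (SE 0.21, adjusted p = 3.15e-06 by limma) and by 1.66 in Ducts (SE 0.21, adjusted p = 1.13e-05). Srebf2, which encodes SREBP-2, the factor most tied to cholesterol synthesis, had values of 7.42, 6.95, 7.61 and 7.42 in yDucts, 7.6, 7.63, 6.63 and 6.46 in Ducts, and 7.43, 7.06, 7.23 and 7.23 in Acini. The Srebf2 groups overlapped, with differences of 0.11 in yDucts and -0.16 in Ducts, and neither was called.

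The Srebf2 result depended on the probe set. A second, dimmer probe set of the gene averaged 7.88 in yDucts, 7.86 in Ducts and 5.35 in Acini, a difference from Acini of 2.52 in yDucts and 2.50 in Ducts. With quantile normalization the brighter probe set was called lower in both groups, at -0.79 in yDucts and -1.005 in Ducts. No direction can be given for Srebf2 against Acini.

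Scap, the escort of the SREBP factors, had values of 8.64, 8.7, 8.64 and 8.83 in yDucts, 9.1, 8.58, 9.05 and 8.93 in Ducts, and 9.45, 8.8, 9.42 and 8.92 in Acini. The ranges of the 3 groups overlapped. Scap was called lower in yDucts by 0.45 on the log2 scale (SE 0.18, adjusted p = 0.0379 by limma) and in Ducts the difference was -0.23 (adjusted p = 0.252). The yDucts call was lost in 8 of 25 alternatives, among them the arrays centred on their medians, where the difference was -0.23. With quantile normalization and with cyclic loess, Scap was called lower in both groups. Over all alternatives its difference reached -1.57 in yDucts and -1.36 in Ducts.

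Stard4, a cytosolic sterol carrier induced by low sterol, had values of 8.76, 7.08, 8.63 and 8.58 in yDucts, 7.44, 7.84, 6.51 and 6.51 in Ducts, and 5.14, 4.19, 4.4 and 4.79 in Acini. It was 12.4-fold higher in yDucts (adjusted p = 3.57e-06 by limma) and 5.45-fold higher in Ducts (adjusted p = 0.000112). Except for yDucts B, each yDucts array lay above each Ducts array.

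**Figure D3:**
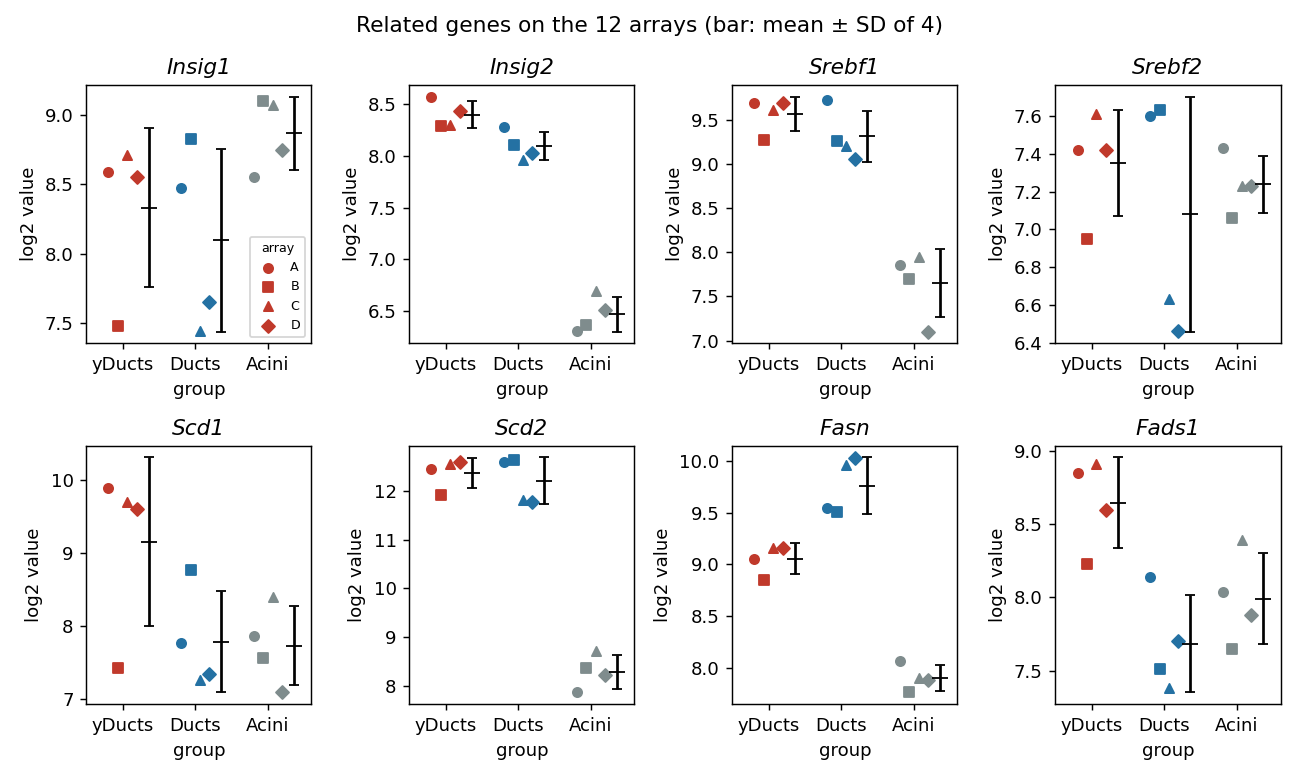
Log2 values of Insig1, Insig2, Srebf1, Srebf2, Scd1, Scd2, Fasn and Fads1 on each array (symbol: letter A to D; colour: group, in the order yDucts, Ducts, Acini; black bar: mean ± SD of 4 arrays; each panel has its own axis). Insig2, Srebf1, Scd2 and Fasn lay above Acini on all 8 organoid arrays, and the groups of Srebf2 overlapped.

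In the fatty acid branch 9 of 10 genes were called higher in yDucts and 7 in Ducts, and 0 lower, but with quantile normalization 4 were higher and 1 lower in yDucts and 5 were higher and 2 lower in Ducts. The median difference in the deposited values was 1.19 in yDucts and 1.21 in Ducts. Scd2, a stearoyl-CoA desaturase that places the first double bond in saturated fatty acids, had values of 12.46, 11.93, 12.55 and 12.6 in yDucts, 12.61, 12.65, 11.82 and 11.77 in Ducts, and 7.86, 8.36, 8.71 and 8.21 in Acini. The organoid arrays were all more than 3 log2 units above the highest Acini array. Scd2 was 17.1-fold higher in yDucts (adjusted p = 2.60e-08 by limma) and 15.2-fold higher in Ducts (adjusted p = 3.77e-08).

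Its neighbour and paralogue Scd1 behaved differently in Ducts. Scd1 had values of 9.88, 7.43, 9.69 and 9.6 in yDucts, 7.76, 8.77, 7.26 and 7.34 in Ducts, and 7.86, 7.56, 8.39 and 7.1 in Acini. The yDucts arrays A, C and D lay above all others, while yDucts B sat among the Ducts and Acini arrays. The difference was 1.42 in yDucts (SE 0.51, adjusted p = 0.0219 by limma), a call lost in 7 of 25 alternatives, and 0.06 in Ducts (95% interval -1.05 to 1.16). A second Scd1 probe set gave -0.22 in yDucts and -1.505 in Ducts.

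Elovl5, an elongase of polyunsaturated fatty acids, had values of 11.87, 11.5, 11.78 and 11.67 in yDucts, 11.4, 11.34, 10.89 and 10.77 in Ducts, and 8.16, 8.56, 8.51 and 8.68 in Acini. The 3 groups were separate from each other on all arrays. Elovl5 was 9.37-fold higher in yDucts (adjusted p = 9.74e-09 by limma) and 6.16-fold higher in Ducts (adjusted p = 6.09e-08). Elovl6, the elongase of palmitate, was 4.11-fold higher in yDucts and 3.79-fold higher in Ducts, and yDucts B (5.87) lay near the highest Acini array (5.65).

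Fasn, fatty acid synthase, had values of 9.05, 8.85, 9.16 and 9.16 in yDucts, 9.54, 9.51, 9.96 and 10.03 in Ducts, and 8.06, 7.76, 7.9 and 7.88 in Acini. Here Ducts C and D were the highest arrays, not among the lowest. The difference was 1.16 in yDucts, but 0.26 with quantile normalization and 0.03 with cyclic loess, where it was not called. In Ducts it was 1.86 and was called under all 4 scalings. Acaca, acetyl-CoA carboxylase, was called higher in yDucts (1.22) and in Ducts (1.56), and Acss2, acetyl-CoA synthetase, in yDucts (1.09) and in Ducts (0.81). The Acaca call in yDucts was not kept after quantile normalization, and the Acss2 call in Ducts was lost in 14 of 25 alternatives.

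Acly, ATP citrate lyase, which supplies cytosolic acetyl-CoA, was called higher in both groups, by 0.60 in yDucts and 0.86 in Ducts. The sign of this probe set was not fixed: with cyclic loess it was -0.49 in yDucts and -0.24 in Ducts. Dimmer Acly probe sets above the 30th percentile on all 12 arrays gave 1.565 and 2.04 in yDucts and 1.83 and 2.18 in Ducts. Another, above it on only 5 arrays, gave -1.23 in yDucts and -0.91 in Ducts. Fads1, the delta-5 desaturase of polyunsaturated fatty acids, differed by 0.66 in yDucts (adjusted p = 0.0146 by limma) and by -0.31 in Ducts (adjusted p = 0.212), and with quantile normalization the yDucts value turned to -0.23. Fads2, the delta-6 desaturase, had values of 7.77, 7.1, 7.94 and 7.95 in yDucts, 7.93, 7.57, 6.5 and 6.51 in Ducts, and 7.53, 7.52, 7.66 and 7.38 in Acini. The Fads2 groups overlapped and the gene was not called in either comparison in the deposited values. In Ducts, Fads1 was called lower in 3 of 25 alternatives and Fads2 in 5 of 25. Over all alternatives the Ducts difference reached -1.39 for Fads1 and -1.40 for Fads2.

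Where a called member had a second probe set above the 30th percentile, most moved the same way. Of 19 such members in yDucts, 5 had a probe set that moved oppositely (Fdft1, Acly, Elovl6, Scd1 and Fads1), and of 16 in Ducts, 2 did (Acly and Elovl6).

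Few of these genes were called different between yDucts and Ducts organoids. Of 33 members, 1 was called higher in yDucts and 1 lower, where 2.15% of all genes were called higher and 0.987% lower. The median difference of the members was 0.24, beside -0.0025 over all genes. Fads1 had values of 8.85, 8.23, 8.91 and 8.6 in yDucts, 8.14, 7.51, 7.38 and 7.7 in Ducts, and 8.04, 7.65, 8.39 and 7.88 in Acini. Every yDucts array lay above every Ducts array, with yDucts B nearest to Ducts A.

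Fads1 was 1.95-fold higher in yDucts than in Ducts (log2 difference 0.96, SE 0.22, adjusted p = 0.03 by limma). Fasn was lower in yDucts by 0.70 on the log2 scale (SE 0.16, adjusted p = 0.028), and every yDucts array lay below every Ducts array. Neither call held in all alternatives: without Ducts C, Ducts D, yDucts A, yDucts C or yDucts D, each taken out in turn, neither gene was called, and without yDucts B Fads1 was called and Fasn was not. A 2-fold minimum left 0 members called, while array weights, which gave Ducts A and B little weight, left 23 called higher and 3 lower. The share of all genes called with array weights is not given here, so these 2 counts cannot be read as a result about the members.

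**Figure D4:**
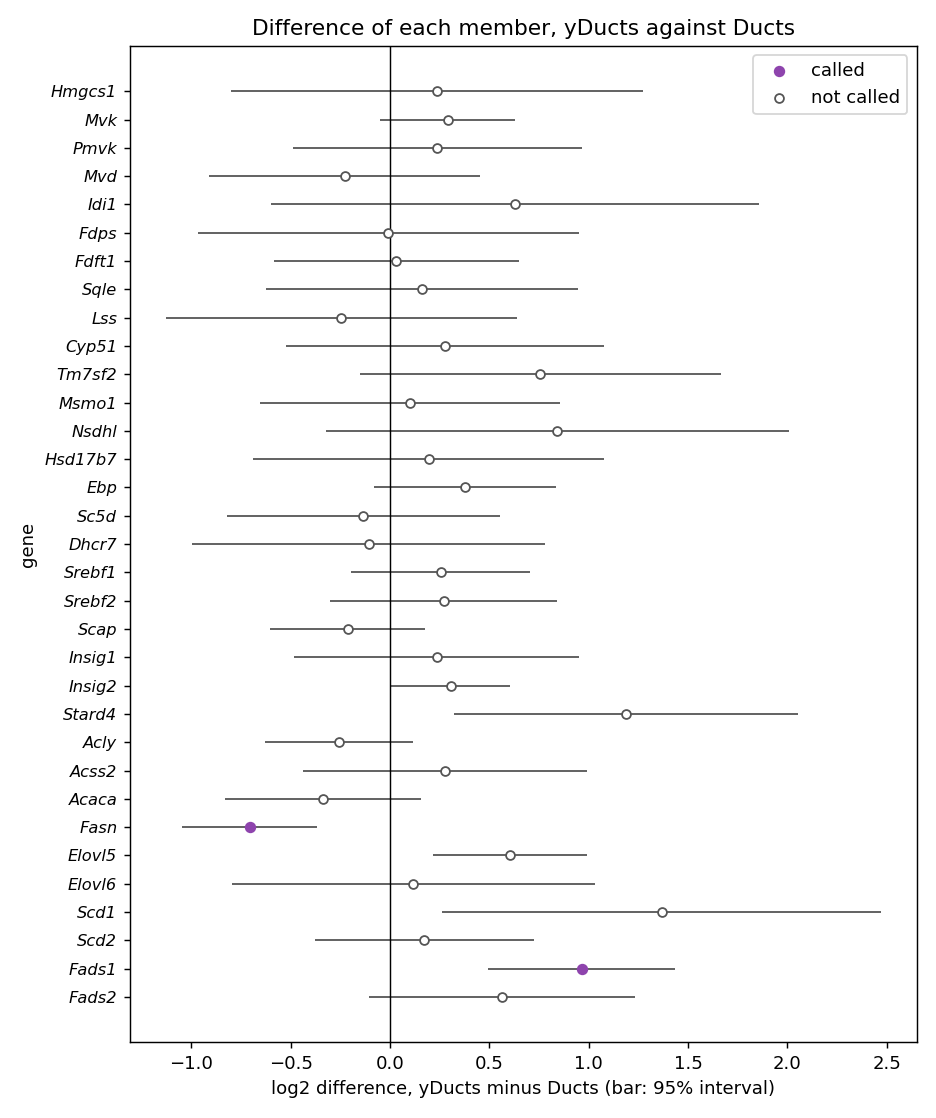
Log2 difference of each of the 33 members, yDucts minus Ducts, with its 95% interval; filled points were called at an adjusted p under 0.05. Only Fads1 (0.96) and Fasn (-0.70) were called, and the intervals of most other members reached from below 0 to above 0.

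For the other 31 members the differences ran from -0.34 (Acaca) to 1.37 (Scd1). Elovl5 lay higher on every yDucts array than on every Ducts array (difference 0.60, 95% interval 0.22 to 0.99), as did Insig2 (0.30, 95% interval 0.01 to 0.61), but their adjusted p by limma were 0.104 and 0.352. Stard4 differed by 1.19 (adjusted p = 0.162) and Scd1 by 1.37 (adjusted p = 0.216). Without yDucts B, Stard4 and Scd1 were called higher together with Fads1. For Msmo1 the interval was -0.66 to 0.86, for Cyp51 -0.52 to 1.08 and for Hmgcs1 -0.80 to 1.27, so a 2-fold difference lay inside the intervals of Cyp51 and Hmgcs1.

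The spread among organoid arrays was shared by many members. Ducts C, Ducts D and yDucts B were the 3 lowest of the 8 organoid arrays for 21 of 33 members and the 3 highest for 0, against 7.59% and 9.23% of all genes. This set of arrays was noticed after the values were seen, so no test was made of it. The pattern held for 9 of the 11 squalene and sterol enzymes, 4 of 6 mevalonate genes, 3 of 6 regulators and carriers (Srebf2, Insig1 and Stard4) and 5 of 10 fatty acid genes (Acss2, Elovl6, Scd1, Scd2 and Fads2). Mvk, Mvd, Lss, Ebp, Srebf1, Scap, Insig2, Acly, Acaca, Fasn, Elovl5 and Fads1 did not have it.

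The median of the squalene and sterol enzymes, relative to their Acini mean, was 1.95 on yDucts B and 2.69 to 2.86 on the other yDucts arrays. It was 1.89 on Ducts C and 1.61 on Ducts D, beside 2.76 on Ducts A and 3.21 on Ducts B. Among 19 other genes of sterol uptake, storage, efflux and SREBP processing, 1 had these arrays lowest (Scarb1) and 4 had them highest (Vldlr, Npc2, Abcg1 and Erlin1). These arrays were lowest for 3 of 15 other fatty acid synthesis and elongation genes, 1 of 13 acyl-CoA and glycerolipid genes and 2 of 13 oxidation genes, and highest for 0 of each. Of the 2 other sterol-pathway enzymes, 0 had them lowest and 1, Ggps1, had them highest. Some ductal markers differed between the same arrays. Car2, a carbonic anhydrase of duct cells, was 9.33 on yDucts B and 8.86 to 10.54 on the other yDucts arrays, and 6.51 on Ducts C and 6.04 on Ducts D beside 10.7 on Ducts A and 11.78 on Ducts B. Cftr, the chloride channel of duct cells, was 3.81 on yDucts B and 4.34 to 5 on the other yDucts arrays, and 2.23 on Ducts C and 2.38 on Ducts D beside 3.57 on Ducts A and 6.61 on Ducts B. Krt7 differed little, at 11.87 to 12.08 in yDucts and 12.69 to 13.07 in Ducts. Ductal markers did not share a direction on yDucts B. It was the highest yDucts array for Sox9 (7.2 beside 6.6 to 6.86), Cldn4 (10.49 beside 9.2 to 9.74) and Epcam (11.63 beside 11.15 to 11.55). It was the lowest for Krt19 (11.03 beside 12.57 to 12.85), Tspan8 (11.43 beside 11.88 to 12.2) and Krt8 (12.82 beside 13.15 to 13.44). Each of these markers was lower on Ducts C and D than on Ducts A and B. The part of these differences in the member values was not tested.

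**Figure D5:**
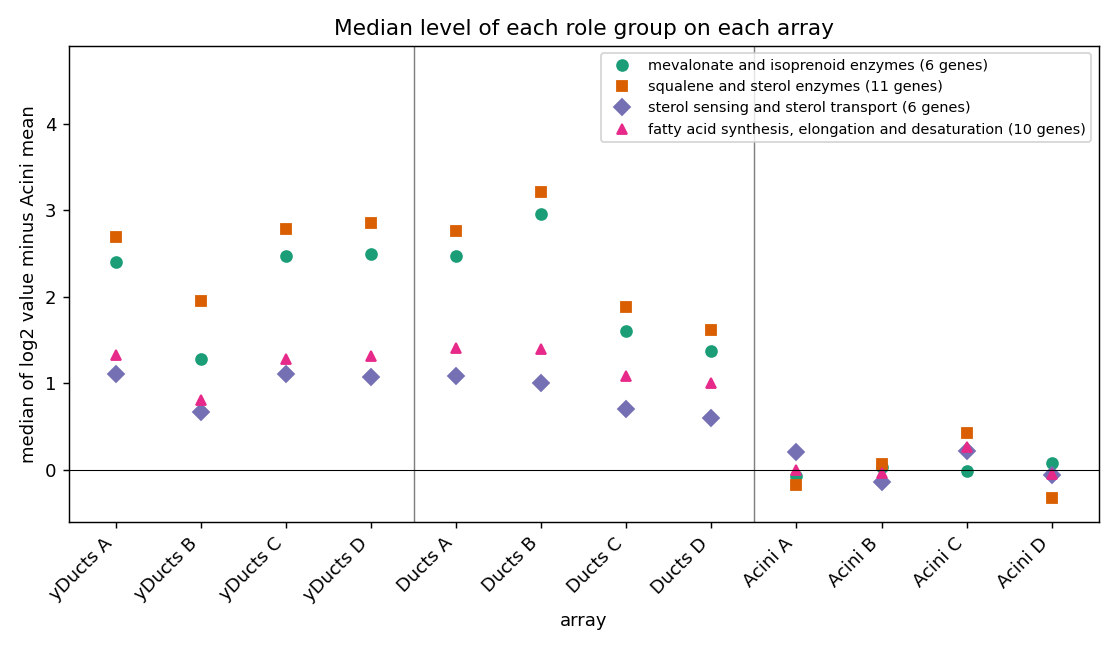
Median over the genes of each role group of the log2 value minus the Acini mean, on each of the 12 arrays (yDucts, Ducts, Acini). The squalene and sterol enzymes stood at 1.95 on yDucts B, 1.89 on Ducts C and 1.61 on Ducts D, and at 2.69 or more on the other organoid arrays.

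Genes around the pathway were taken from lists set by function. Among all genes tested, 43.6% were called higher and 32.6% lower in yDucts, and 42.7% and 33.1% in Ducts. With quantile normalization, 4377 of 14989 genes were called higher and 5376 lower in yDucts, and 4263 and 5416 in Ducts. With cyclic loess the counts were 4061 and 5389 of 14970 in yDucts, and 3861 and 5475 in Ducts. Of 2 other sterol-pathway enzymes, Ggps1, which makes geranylgeranyl diphosphate, was 4.16-fold higher in yDucts and 4.48-fold higher in Ducts, and Aacs, acetoacetyl-CoA synthetase, was called higher in the deposited values, by 0.73 in yDucts and 0.83 in Ducts. Of 19 genes of sterol uptake, storage, efflux and SREBP processing, 10 were called higher and 4 lower in yDucts, and 9 and 5 in Ducts. The shares called higher, 52.6% in yDucts and 47.4% in Ducts, were near those of all genes. With quantile normalization the counts were 8 and 8 in yDucts and 7 and 9 in Ducts, and with cyclic loess 7 and 8 in yDucts and 6 and 8 in Ducts. Mbtps2, the site-2 protease that frees SREBP from the membrane, was 10.7-fold higher in yDucts and 10.4-fold higher in Ducts. Apoe, a lipid-carrying apolipoprotein, was lower by 3.92 in yDucts and by 3.78 in Ducts, and Tmem97, a regulator of NPC1, by 3.18 in yDucts and by 3.22 in Ducts.

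Of 15 other genes of fatty acid synthesis and elongation, 10 were called higher and 4 lower in yDucts, and 10 and 3 in Ducts. With quantile normalization 8 were higher and 4 lower in yDucts, and 8 and 5 in Ducts. Me1, the malic enzyme that supplies NADPH, was 36.4-fold higher in yDucts and 43.7-fold higher in Ducts. Hsd17b12, the ketoacyl reductase of elongation, was 10.1-fold higher in yDucts and 11.4-fold higher in Ducts. Acacb, the carboxylase isoform at mitochondria, was lower by 3.88 in yDucts and 3.72 in Ducts, opposite to Acaca in the deposited values.

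Of 13 genes of acyl-CoA and glycerolipid synthesis, 7 were called higher and 1 lower in each organoid group. That was 53.8% called higher, beside 43.6% of all genes in yDucts and 42.7% in Ducts. With quantile normalization the counts were 6 and 4 in yDucts and 6 and 5 in Ducts, and with cyclic loess 5 and 5 in each. Acsl3, which activates fatty acids to acyl-CoA, was 18.2-fold higher in yDucts and 38.6-fold higher in Ducts, and its relative Acsl4 was 29.7-fold higher in yDucts and 17.2-fold higher in Ducts. Plin2, a coat protein of lipid droplets, was 12.0-fold higher in yDucts and 10.2-fold higher in Ducts. Between the organoids, Dgat2, which closes triglyceride synthesis, was lower in yDucts by 1.34 (adjusted p = 0.0237 by limma) and Acsl3 by 1.08 (adjusted p = 0.0485). Of 13 genes of fatty acid oxidation, 6 were called higher and 2 lower in yDucts, and 4 and 3 in Ducts. The shares called higher were 46.2% in yDucts, near that of all genes, and 30.8% in Ducts, below it. The balance of higher and lower calls in this list turned under other scalings. After quantile normalization 2 were higher and 5 lower in yDucts, and 1 and 8 in Ducts. After cyclic loess the counts were 2 and 4 in yDucts and 1 and 9 in Ducts.

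Markers of cell types that a pancreas preparation may hold fell in the organoids along with the comparison against Acini. The summed level of 8 stromal markers was 6.57 to 6.69 on the log2 scale in yDucts, 6.49 to 6.69 in Ducts and 11.8 to 12.7 in Acini. All 8 were called lower in both organoid groups, as were the 7 endothelial and 6 endocrine markers, whereas 7 of 8 immune markers were lower and 1 higher. Of 8 fat-cell markers measured, 6 were tested, and 4 were called lower in yDucts and 5 in Ducts. The summed level of all 8 was 7.03 to 7.86 in yDucts, 7.41 to 7.87 in Ducts and 10.6 to 11.2 in Acini, led by Fabp4, which endothelial cells also express, while Adipoq, the defining fat-cell gene, averaged below the 30th percentile in all 3 groups and Pparg was called higher in both organoid groups. The part of these cells, and of the RNA differences given above, in the member differences was not tested.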

How the data were processed

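Total RNA from 12 samples was labelled with biotin and hybridised to 1 Affymetrix mouse array each. The authors deposited log2 values for each probe set, kept to 2 decimals. They were made with RMA, according to the submitters' processing notes, a method that removes background, equalises intensity distributions and summarises probes. The version and chip definition were not given in the sources used here, nor was it stated whether all arrays were processed together. Because the deposited medians differed between Acini and organoids, other scalings were tried and values are relative to the other genes of an array. Arrays hold no read depth, and their number limits the precision.

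Of 45101 probe sets, 34958 had 1 gene symbol. A gene was represented by the brightest such probe set over all 12 arrays, and genes above the 30th percentile on at least 4 arrays were tested (14990 genes). Groups were compared with limma 3.58.1 (R 4.3.3) fitting 1 mean per group to all 12 arrays at once and testing 3 contrasts, two-sided, with Benjamini-Hochberg adjustment over all genes tested. Calls needed an adjusted p under 0.05. SE is the standard error of the model, and intervals are 95%. The fit was tested on simulated data. Values of other probe sets are given for a few genes, and the other genes whose probe sets disagreed are named only.

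The members and all gene lists were chosen with earlier results of these data known. Values on each array are given for the 8 called members with the largest difference in each comparison and for members that departed from most of their role group. A few further members were added for contrast after their values were seen. From other lists up to 4 genes with the largest differences are named. Entrez identifiers of 33 members matched the RefSeq table. Promoters were read from the RefSeq table of GRCm38.p6, upstream bases only. The main fit used no pairing by replicate letter. Between arrays of the same letter, the correlation of deviations from the group means was -0.35 to 0.13 over 12 pairs. With 4 arrays a group, these values cannot show whether arrays of a letter shared an animal or batch. No array repeated another. The alternatives were other scalings, probe set choices, filters, array weights, a replicate block, fits of 2 groups, a 2-fold minimum, and fits without each array or without pairs of Ducts arrays.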

Additional observations from a re-analysis of the deposited data

Results flagged for a closer look

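Within the groups of 4, the distance of 1 array from the rest was large by Dixon's ratio for 13 of 99 groups of values. Chance alone gives about 1 in 20 groups. In 11 of them yDucts B was the lowest yDucts array, at log2 values of 8.89 for Hmgcs1, 6.05 for Pmvk, 7.53 for Idi1, 8.8 for Sc5d, 6.15 for Dhcr7, 9.28 for Srebf1, 7.48 for Insig1, 7.08 for Stard4, 7.48 for Acaca, 5.87 for Elovl6 and 7.43 for Scd1. In the other 2, Ducts B stood apart, with 7.46 for Lss, above 3 arrays at 7.33, and with 7.79 for Acaca, below arrays at 8.32 or more. The large ratio for Lss arose from 3 values tied at 2 decimals, and the SD of the 4 Ducts arrays was only 0.065. The members are not independent of each other.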

How the results depend on the processing

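Of the calls in the deposited values, 16 of 28 in yDucts against Acini and 17 of 26 in Ducts against Acini were kept under every alternative run, and 0 of 2 in yDucts against Ducts. The count called higher in yDucts against Acini was 17 with quantile normalization and 16 with cyclic loess, in place of 27, and 25 to 27 without 1 array. The count called lower there, 1 in the deposited values, was 5 and 6 under those scalings, 0 with centred arrays, with the 2-fold minimum or without Ducts C and D, and 0 to 1 without 1 array. In Ducts against Acini the count called lower, 2 in the deposited values, was 6 with quantile normalization, 6 with cyclic loess, 0 with centred arrays, 1 with the 50th percentile filter, 1 with the replicate block, 0 with the 2-fold minimum, 4 without Ducts A and B, 0 without Ducts C and D and 0 to 3 without 1 array, and the count called higher was 23 to 25 without 1 array. In yDucts against Ducts, 23 were higher and 3 lower with array weights, which weighted Ducts A and B far below Ducts C and most yDucts arrays. There 0 were lower with quantile normalization, and 0 and 0 remained with the 2-fold minimum or without Ducts C and D. Without Ducts A and B, a set of arrays chosen with earlier results known, 10 were higher. Without 1 array, 0 to 3 were higher and 0 to 1 lower. The shares of all genes called with array weights, or without Ducts A and B, are not given here. The counts in those fits therefore cannot be read as a result about the members.

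Members called in the deposited values or under the alternative whose sign turned in yDucts against Acini were Fdft1 (-0.17 quantile, -0.44 cyclic loess, -0.17 mean of probe sets), Srebf2 (-0.79 and -0.86 under the 2 scalings), Acly (-0.19 and -0.49), Fads1 (-0.23 and -0.43) and Fads2 (-0.74 and -0.84). In Ducts against Acini they were Acly (-0.24 with cyclic loess) and Srebf2 (1.17 with the mean of its probe sets, 2.50 with the probe set of largest interquartile range). In yDucts against Ducts, Dhcr7 was 0.62 with array weights. Members called in neither also changed sign: Mvk (0.04 with centred arrays) and Dhcr7 (-0.48 and -0.56 under the 2 scalings) in yDucts against Acini, and Fdft1 (-0.20 and -0.48), Dhcr7 (-0.34 and -0.45), Scd1 (-0.82 and -1.04), Srebf2 (0.05 with centred arrays) and Fads2 (0.23 without Ducts C and D) in Ducts against Acini. In yDucts against Ducts, where most differences were small, many signs turned. The replicate block changed no other call than Insig1 and Acss2 in Ducts and Fdft1 in yDucts, each lost against Acini. The cause of these changes was not tested. Each member lay above the 30th percentile on all 12 arrays, but that percentile is not a measured background. Some Acini means were low: Pmvk averaged 4.29 there, below the lowest Acini array median of 4.54. Whether signal near background made such differences smaller was not tested.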
